A study of Mus musculus with 12 samples.

Results

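The cerebellins are 4 secreted proteins encoded by Cbln1, Cbln2, Cbln3 and Cbln4, and all 4 genes were found by symbol among the 78298 genes of the deposited table. Each of the 4 passed the filter on low counts that left 18600 genes for testing. Poly(A) RNA of the hippocampus was sequenced from male C57BL/6 mice, bought at 6 to 8 weeks of age, in 3 groups of 4 libraries. The Control group was left unstressed and given saline. The Model group had 28 days of chronic unpredictable mild stress, in which a different mild stressor is applied each day to model depression, and was given saline as well. The Treatment group had these 28 days too and from day 15 was given poricoic acid A, a triterpene acid named for Poria cocos, once daily by oral gavage (20 mg/kg, 14 days), so no unstressed mice received the compound. The labels give 4 mice per group for sequencing and do not say whether any library pooled tissue.

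Cerebellins are relatives of complement C1q that assemble into multimers and are released at synapses. Cbln1 and Cbln2 bind neurexins on the presynaptic side and delta glutamate receptors such as Grid1 on the postsynaptic side, and so bridge the synaptic cleft. Cbln1 was first known from cerebellar granule cells, where it holds together the parallel fibre synapse onto Purkinje cells. Cbln3 is mainly a granule cell protein of the cerebellum and is secreted only in complex with Cbln1. Cbln2 is known from cortical, thalamic and habenular neurons. Cbln4 is known from subsets of cortical and habenular neurons and interneurons, and also binds Dcc and Neo1.

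Because the 4 genes are related, the first transcript of each (GENCODE vM21, build GRCm38) was compared to see whether reads could be split between them. Coding identity was between 64.3% (Cbln3 and Cbln4) and 75.1% (Cbln1 and Cbln2), and no pair of transcripts shared a run of 31 bases. The longest shared run in any pair had 21 bases, far below the length of a sequenced read. The stretch below is the 3′ end of the coding sequence in exon 3, the most alike ungapped 60 bases of Cbln1, Cbln3 and Cbln4. It was chosen for the most bases shared by all 3 genes, and the run of 21 bases shared by Cbln1 and Cbln3 lies outside it. It is given 5′ to 3′ on the coding (minus) strand with capitals for bases identical in all 3 genes:
Cbln1: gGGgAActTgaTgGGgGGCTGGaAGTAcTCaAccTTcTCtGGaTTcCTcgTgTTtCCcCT
Cbln3: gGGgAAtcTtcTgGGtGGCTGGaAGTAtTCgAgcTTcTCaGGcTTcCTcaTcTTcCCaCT
Cbln4: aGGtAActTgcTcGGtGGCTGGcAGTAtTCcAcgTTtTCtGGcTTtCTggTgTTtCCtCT
These are coding bases 519 to 578 of Cbln1 (GRCm38 chr8:87470258-87470317), 531 to 590 of Cbln3 (chr14:55882984-55883043) and 534 to 593 of Cbln4 (chr2:172037374-172037433). Even here 38 of 60 bases were identical in all 3, and Cbln3 and Cbln4 each had 46 of 60 bases in common with Cbln1.

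The 4 genes lie on different chromosomes. In the coordinates of the deposited table, for which the submitters' notes name GRCm39, Cbln1 is at chr8:88195033-88199237, Cbln2 at chr18:86729235-86736408, Cbln3 at chr14:56116370-56121849 and Cbln4 at chr2:171878153-171885386. Cbln2 and Cbln4 each overlap the annotated span of a long noncoding RNA gene, ENSMUSG00000132527 with counts of 0 to 11 and ENSMUSG00000138707 with counts of 0 to 1. Reads of overlapping genes cannot be told apart without strand.

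Levels between genes were compared as deposited FPKM, a read density scaled by transcript length and by the total of the library. The mean over the 12 libraries was 6.97 FPKM for Cbln1, 5.22 for Cbln2, 4.13 for Cbln4 and 0.931 for Cbln3. These means stand at the 52nd, 46.2nd, 41.7th and 18.3rd percentile of the tested genes. Cbln1 had the highest level of the family in 9 libraries and Cbln2 in 3 (Control replicate 3, Model replicate 3 and Treatment replicate 1). Cbln3 had the lowest in 11 libraries and exceeded Cbln2 in Model replicate 1, where it reached 5.9 FPKM against 3.75 FPKM. The order of Cbln1, Cbln2 and Cbln4 therefore changed from library to library, and their ranges overlapped.

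**Figure D1:**
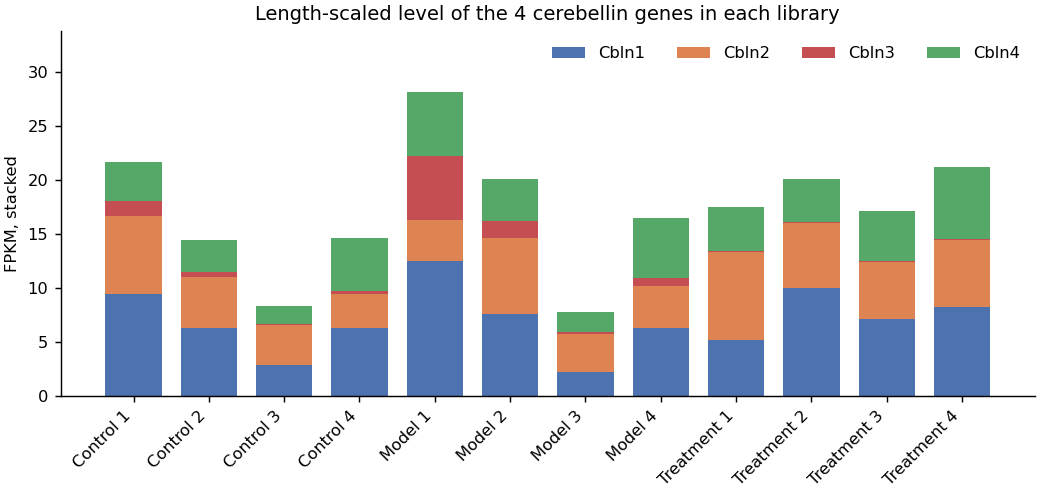
Stacked deposited FPKM of the 4 cerebellin genes in each of the 12 libraries. Cbln3 is a thin band except in Model replicate 1 (5.9 FPKM), and Control replicate 3 and Model replicate 3 have the shortest bars.

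The library totals were 17083260 to 27479083 estimated counts, and CPM below are counts per 1e+06 of the TMM-scaled total of a library. Markers of hippocampal cells were present in every library: 7 dentate granule cell genes summed to between 534 and 832 CPM, 5 CA1 genes to between 396 and 603 CPM and 5 CA3 genes to between 143 and 178 CPM. Markers of adjoining or other brain tissue also varied between libraries. Marker scores, each the mean over a list of log2 CPM centred on all 12 libraries, set 4 libraries apart for thalamus, medial habenula or cerebellum. Control replicate 1 was high for thalamus (1.49), medial habenula (1.1) and cerebellum (1.08). Model replicate 1 was high for cerebellum (2.6), Model replicate 2 for medial habenula (1.71) and cerebellum (1.25), and Treatment replicate 2 for medial habenula (1.42). Model replicate 4 was not among the 4, though its cerebellum score of 0.92 was close to that of Control replicate 1. Choroid plexus markers differed between the groups instead. Their score was 0.82, 1.12, 1.25 and -0.28 in Control, -0.61 to -0.12 in Model and -0.95 to 0.53 in Treatment, and the 10 genes summed to 726 to 2380, 606 to 876 and 474 to 1470 CPM. All 10 had a negative log2 fold change in Model against Control (median -1.13) and in Treatment against Control (median -1). Each had an unadjusted p under 0.05 in both (15.6% and 13.9% of all tested genes), and 1 and 0 of them passed (0.79% and 0.102%). In bulk tissue, fewer cells of a type and less RNA per cell cannot be told apart. Results are also given without the 4 libraries named first, a choice made after seeing the data.

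Treatment was compared with Model to ask what the compound changed in stressed mice, Model with Control to ask what stress changed, and Treatment with Control to see where treated stressed mice stood. The tests were fitted in edgeR over all 18600 genes, and a gene passed at an adjusted p under 0.05 (Benjamini-Hochberg). The members were chosen by gene symbol with their levels and fold changes in these libraries known, so a call on a member describes these libraries and is not independent evidence. Of the 4 members, 0 passed in Model against Control, where 0.79% of all tested genes passed, and 4 had a positive difference. In Treatment against Model 1 passed, Cbln3, which fell; 1.88% of all genes passed, 1.18% as higher and 0.704% as lower. In Treatment against Control 0 passed, against 0.102% of all genes (0.0645% higher and 0.0376% lower). At an unadjusted p under 0.05, 1 of 4 passed in Model against Control, 1 in Treatment against Model and 2 in Treatment against Control, with 15.6%, 18.5% and 13.9% of all genes. DESeq2 called 0, 1 and 0 members in these comparisons and limma-voom 0 in each. Of all 18600 genes DESeq2 called 398 as higher and 260 as lower, 551 and 537, and 316 and 114 in the same order. With limma-voom these counts were 43 and 45, 198 and 120, and 6 and 3. The median log2 fold change of the 4 was 0.29, 0.10 and 0.40 in the order of these comparisons, and that of all tested genes was -0.01, 0.00 and -0.01. Each pair of comparisons shares the libraries of 1 group, so their values are not independent of each other.

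**Figure D2:**
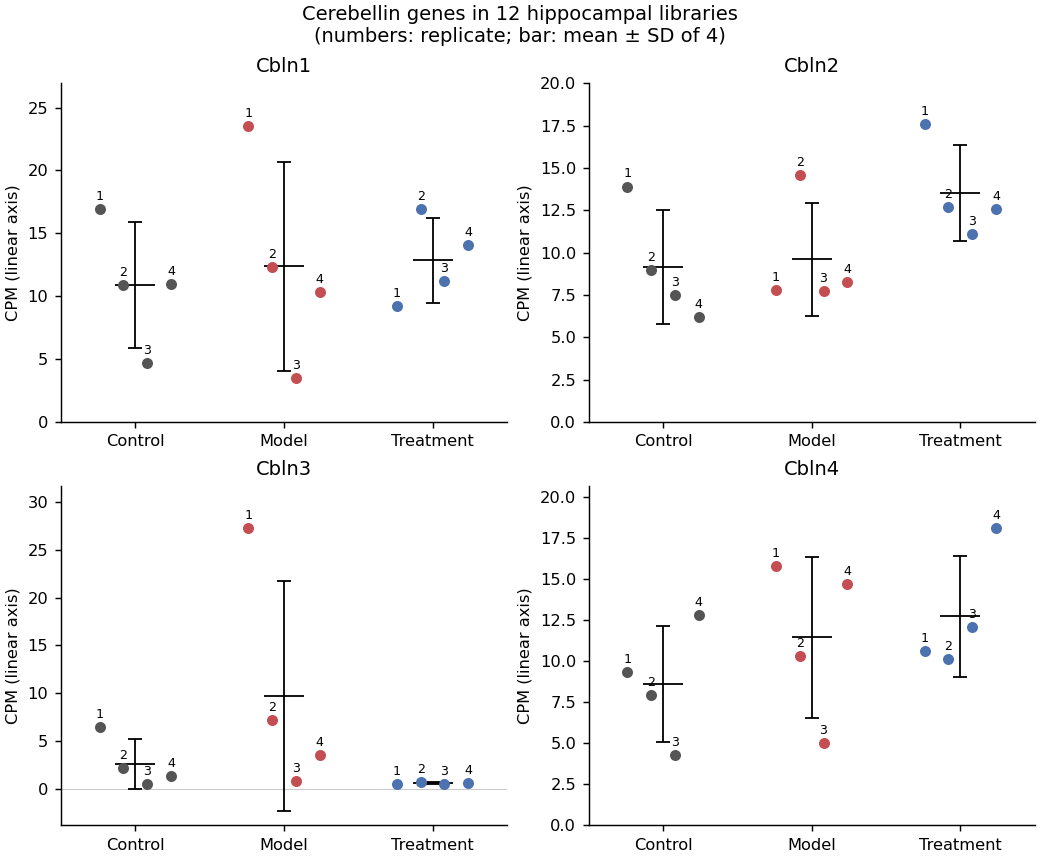
CPM of each cerebellin gene (linear axes) in Control, Model and Treatment, with 1 numbered point per library and the mean ± SD of 4 beside them. Treatment libraries of Cbln3 lie between 0.505 and 0.709 CPM, below every Model library, and the groups overlap for Cbln1, Cbln2 and Cbln4.

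Cbln3, the granule cell cerebellin, had the widest range of the family. Its CPM were 6.41, 2.14, 0.524 and 1.35 in Control, 27.3, 7.22, 0.792 and 3.52 in Model, and 0.513, 0.709, 0.505 and 0.56 in Treatment. The highest library was 54-fold above the lowest, Model replicate 1 alone held more than the other 3 Model libraries together, and the 4 Treatment libraries were low and close to each other. Model and Treatment did not overlap, as for 9.5% of all tested genes. The gap was small, however: Model replicate 3 had 17 counts (95% exact Poisson interval 9.9 to 27.2, counting error only) and Treatment replicate 2 had 14 (7.65 to 23.5). Control overlapped with both groups, and Control replicate 3 had 9 counts (4.12 to 17.1).

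The mean level of Cbln3 was 2.6 ± 2.62 CPM in Control, 9.7 ± 12 in Model and 0.572 ± 0.0949 in Treatment (SD, n = 4). In Treatment against Model the log2 fold change was -4.07 ± 0.92 (SE, adjusted p = 0.0363 in edgeR). It was 1.90 ± 0.75 in Model against Control (adjusted p = 0.232) and -2.18 ± 0.98 in Treatment against Control (adjusted p = 0.339), neither of which passed. The means stood in the order Treatment, Control, Model, and neither neighbouring pair of groups passed. Without Model replicate 1 the fall from Model to Treatment was -2.73 ± 0.74 and no longer passed (adjusted p = 0.0686), nor did it without Model replicate 2 (0.110) or 3 (0.0647) or without any single Treatment library (0.0570 to 0.0884). Without the 4 libraries that stood apart it was -2.03 ± 0.62 (adjusted p = 0.28), with Model replicate 4 (3.52 CPM, cerebellum score 0.92) still included. With Model replicate 2, Model replicate 3 or these 4 libraries left out, 0 of all tested genes passed. A lost call in these fits is therefore not particular to Cbln3. Without Model replicate 1, by contrast, 175 genes still passed as higher and 135 as lower. Without Treatment replicate 1, 2, 3 or 4, 128, 12, 178 and 26 genes still passed as lower. In those fits the call of Cbln3 was lost while other genes kept theirs.

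Some cerebellar marker genes moved closely with Cbln3. Gabra6, a GABA receptor subunit of cerebellar granule cells, had CPM of 1.80, 0.579, 0 and 0.368 in Control, 10, 2.7, 0.0466 and 2.32 in Model, and 0, 0.0507, 0.0505 and 0.0862 in Treatment. Fat2, a granule cell protocadherin, had 3.20, 0.796, 0.175 and 0.45 in Control, 13.3, 2.97, 0 and 3.22 in Model, and 0.103, 0.304, 0.606 and 0.474 in Treatment. Both were highest in Model replicate 1, as was Cbln3, and both were near 0 in the Treatment libraries. En2 and Cdh15, also on the list, were highest in that library too but followed Cbln3 less. En2 had 1.3 to 3.38 CPM in Model and 0.819 to 2.53 in Treatment. Cdh15 had 0.699 to 2.22 CPM in Model and 0.304 to 1.31 in Treatment. Summed over the 6 cerebellar markers, the level was 2.33 to 10.5 CPM in Control, 2.98 to 36.4 in Model and 3.38 to 3.83 in Treatment. Of the 5 that could be tested 1, Gabra6, fell in Treatment against Model (-6.12 ± 1.29, adjusted p = 0.0301, with counts of 0 to 2 in Treatment). The median of the 5 was -1.47 in that comparison and 1.17 in Model against Control. In the latter 0 passed, 4 had an unadjusted p under 0.05 (15.6% of all tested genes) and 5 were positive. Of all tested genes 1.88% passed in Treatment against Model and 0.79% in Model against Control. Barhl1, a granule cell lineage transcription factor that did not pass the filter, had 0 to 19 counts.

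**Figure D3:**
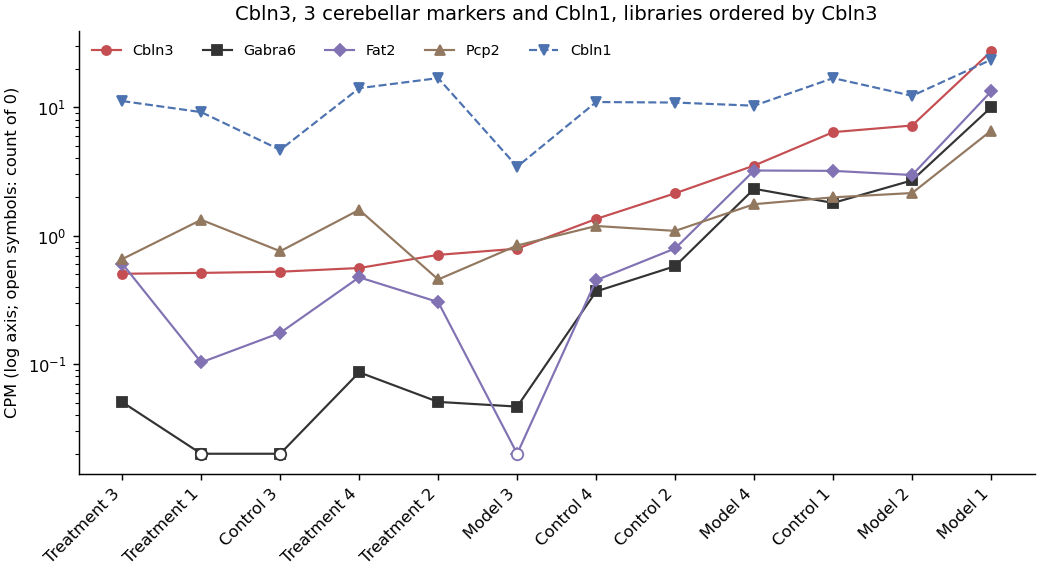
CPM on a log axis of Cbln3, of the cerebellar markers Gabra6, Fat2 and Pcp2, and of Cbln1 (dashed), with the 12 libraries ordered by Cbln3; open symbols stand for a count of 0. Gabra6 and Fat2 climb among the libraries higher in Cbln3, to Model replicate 1, and Cbln1 does so less closely. Among the libraries low in Cbln3, Fat2 does not climb, with 0.606 CPM in Treatment replicate 3 and 0 in Model replicate 3.

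Over the 12 libraries, log2 CPM of Cbln3 and the cerebellum score had a Pearson r of 0.97 and a Spearman rho of 0.85, and r was 0.93 without Model replicates 1 and 2, the libraries farthest from the median of Cbln3. These are descriptions over libraries that share their preparation. The 5 genes of all 13708 compared whose pattern was most like Cbln3 were Gabra6 (r = 0.978), Fat2 (0.903), Car8 (0.875), Pcp2 (0.853) and Cnpy1 (0.853). Without Model replicates 1 and 2 these r were 0.96, 0.80, 0.65, 0.62 and 0.68. The likeness of Car8, Pcp2 and Cnpy1 thus rested in part on these libraries. Car8 and Pcp2 are Purkinje cell genes, and Gabra6, Fat2 and Pcp2 also belong to the cerebellar marker list. With the cerebellum score as a covariate, an alternative chosen after seeing the data, Cbln3 was at -0.04 ± 0.22 in Model against Control and at -0.72 ± 0.33 in Treatment against Model (adjusted p = 0.961 and 0.332).

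Cbln1, the bridge between neurexins and delta receptors, varied as much within groups as between them. Its CPM were 16.9, 10.9, 4.66 and 11 in Control, 23.5, 12.3, 3.45 and 10.3 in Model, and 9.18, 16.9, 11.2 and 14.1 in Treatment. Model replicate 1 was the highest library and Model replicate 3 the lowest, 6.82-fold apart, and the 3 groups overlapped. The means were 10.9 ± 5, 12.4 ± 8.33 and 12.8 ± 3.38 CPM (SD, n = 4), so neighbouring means differed by less than the spread. The log2 fold change was 0.18 ± 0.41 in Model against Control, 0.05 ± 0.41 in Treatment against Model and 0.23 ± 0.41 in Treatment against Control (adjusted p = 0.881, 0.971 and 0.862). With SEs of this size, differences as small as these were not detectable for this gene. With the cerebellum score as a covariate Cbln1 was higher in Treatment than in Model (1.53 ± 0.23, adjusted p = 0.00544), and with the neocortex score it was lower without passing (-1.41 ± 0.46, adjusted p = 0.515). Its direction thus turned with the marker list entered. Every Treatment library had a neocortex score above every Model library, so the fit with that score could hardly separate the group from the score.

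The level of Cbln1 followed the cerebellum score less closely than Cbln3 did (r = 0.66, rho = 0.66, and r = 0.56 without Model replicate 3 and Control replicate 3, n = 12). The most similar genes were Mab21l1 (r = 0.908), Cerk (0.88), Vwc2l (0.876), Mybpc1 (0.863) and Zcwpw1 (0.86). Without Model replicate 3 and Control replicate 3 the r of Zcwpw1 was 0.81 and those of the other 4 were 0.40 to 0.60, so their likeness rested on these libraries. Within the family Cbln1 and Cbln4 had the highest r (0.78), which fell to 0.23 without the same libraries. Both genes were low in Control replicate 3 and Model replicate 3.

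Cbln2, also a neurexin ligand, had CPM of 13.9, 8.98, 7.51 and 6.21 in Control, 7.78, 14.6, 7.74 and 8.24 in Model, and 17.6, 12.7, 11.1 and 12.6 in Treatment. The 4 Treatment libraries were above 3 of 4 Control and 3 of 4 Model libraries, and Control replicate 1 and Model replicate 2 lay among them. The means were 9.15 ± 3.35, 9.59 ± 3.35 and 13.5 ± 2.84 CPM (SD, n = 4). The log2 fold change was 0.06 ± 0.24 in Model against Control, 0.50 ± 0.24 in Treatment against Model and 0.56 ± 0.24 in Treatment against Control (adjusted p = 0.941, 0.278 and 0.315). None passed, and Control and Model means differed by less than the spread.

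Markers of other tissue moved with Cbln2 as well. The libraries highest for medial habenula in each group, Control replicate 1, Model replicate 2 and Treatment replicate 2, had 13.9, 14.6 and 12.7 CPM of Cbln2. Within Treatment this did not hold: replicate 1 had 17.6 CPM at a score of -0.39 and replicate 4 had 12.6 at -0.17. The neocortex score was -0.23 to 0.14 in Control, -0.35 to -0.05 in Model and 0.09 to 0.36 in Treatment, and the 8 neocortical genes summed to 298 to 366, 302 to 364 and 376 to 455 CPM. Of these 8, Cux2, a transcription factor of upper cortical layers, passed in Treatment against Model and rose (0.81 ± 0.18, adjusted p = 0.0366). Of all tested genes 1.18% passed as higher in this comparison, and the median of the list was 0.42. Log2 CPM of Cbln2 had r = 0.76 with the neocortex score (rho = 0.80, and 0.74 without Treatment replicate 1 and Control replicate 4) and r = 0.60 with the medial habenula score (rho = 0.77, and 0.82 without them), over 12 libraries. For the thalamus score r was 0.57 (rho = 0.64, and 0.71 without these libraries). With the neocortex score as a covariate the difference between Treatment and Model was -0.21 ± 0.31 (adjusted p = 0.884). Every Treatment library scored above every Model library, so this fit could hardly separate the group from the score. With it 0 of all tested genes passed as higher and 2 as lower, against 219 and 131 in the main fit. Without the 4 libraries that stood apart the difference in Cbln2 was 0.78 (adjusted p = 0.235). The genes most like Cbln2 were Sptssb (r = 0.905), Zfp438 (0.882), the adhesion molecule Cntn4 (0.874), Cep152 (0.869) and the integrin subunit Itga5 (0.819).

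**Figure D4:**
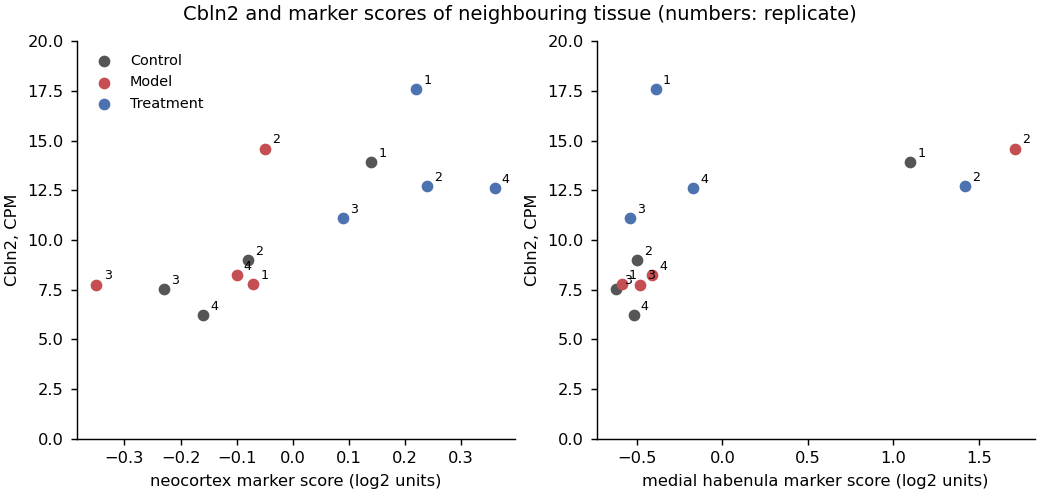
CPM of Cbln2 against the neocortex marker score (left) and the medial habenula marker score (right), both in log2 units, with 1 point per library coloured by group and numbered by replicate. The 4 Treatment libraries have neocortex scores of 0.09 to 0.36, and the 3 libraries with a high habenula score have 12.7 to 14.6 CPM of Cbln2.

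Cbln4, the member that also binds Dcc and Neo1, had CPM of 9.32, 7.93, 4.25 and 12.8 in Control, 15.8, 10.3, 4.99 and 14.7 in Model, and 10.6, 10.1, 12.1 and 18.1 in Treatment. Control replicate 3 and Model replicate 3 were lowest, Treatment replicate 4 was highest at 4.26 times the lowest, and the groups overlapped. The means were 8.58 ± 3.55, 11.4 ± 4.92 and 12.7 ± 3.68 CPM (SD, n = 4), and neighbouring means differed by less than the spread. The log2 fold change was 0.41 ± 0.32, 0.15 ± 0.32 and 0.56 ± 0.32 in Model against Control, Treatment against Model and Treatment against Control (adjusted p = 0.597, 0.852 and 0.466). Over 12 libraries Cbln4 had an r of -0.67 with the choroid plexus score (rho = -0.78, and -0.76 without Control replicate 3 and Model replicate 3). That score was itself higher in 3 of 4 Control libraries than in any Model or Treatment library, and its part in the values of Cbln4 was not tested. Cbln4 had an r of -0.68 with the CA3 score (rho = -0.62, and -0.39 without these libraries) and of 0.57 with the CA1 score (rho = 0.66, and 0.61 without them). The somatostatin interneuron score, for cells in which Cbln4 is known, had r = 0.41 (rho = 0.33).

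The gene most like Cbln4 was Nxph4, a secreted neurexophilin and neurexin ligand (r = 0.962, and 0.89 without the same 2 libraries). Its CPM were 1.60, 1.74, 0.699 and 2.04 in Control, 2.62, 2.20, 1.07 and 2.49 in Model, and 2.20, 1.88, 2.47 and 3.23 in Treatment. As in Cbln4, replicate 3 was lowest in Control and Model and Treatment replicate 4 was the highest of all. Bmp3, a ligand of the bone morphogenetic protein family (0.937), the matrix-associated protein Ccn2 (0.918), the membrane glycoprotein Cd200 (0.895) and Bnip5 (0.891) came next. Nxph4 was also a member of the list of other neurexin ligands and did not pass in any comparison (0.44 ± 0.31, 0.23 ± 0.31 and 0.67 ± 0.31, adjusted p = 0.547, 0.760 and 0.357).

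Of the receptors described, Nrxn2, Nrxn3, Grid1 and Neo1 had higher mean FPKM in Control than any cerebellin, and Dcc did not. Nrxn2 and Nrxn3, which act on the presynaptic side, had 112 ± 6.37 and 27.8 ± 1.08 FPKM (SD, n = 4). Grid1, a delta receptor of the postsynaptic side, had 11.9 ± 0.484 FPKM, Neo1 19.4 ± 2.15 and Dcc 4.18 ± 0.292. For comparison, Cbln1 had 6.2 ± 2.7 FPKM in Control. The coefficient of variation among Control libraries was 6.7% for Grid1 and 46% for Cbln1, on CPM. Grid1 did not pass in any comparison, with log2 fold changes of 0.06 ± 0.06 in Model against Control, 0.00 ± 0.06 in Treatment against Model and 0.06 ± 0.06 in Treatment against Control (adjusted p = 0.727, 0.999 and 0.754). Nrxn2 was at 0.03 ± 0.06, 0.15 ± 0.06 and 0.18 ± 0.06, and Nrxn3 at 0.09 ± 0.06, -0.05 ± 0.06 and 0.04 ± 0.06, and neither passed.

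Dcc, a netrin receptor that Cbln4 can bind, fell in Treatment against Model. Its CPM were 37.2, 41.1, 45.3 and 40.4 in Control, 39.9, 44.1, 43.8 and 46.1 in Model, and 37.0, 33.9, 32.0 and 35.2 in Treatment. All 4 Treatment libraries lay below all Model and all Control libraries. Separation in either direction was found for 9.5% of tested genes against Model and for 7.24% against Control. The log2 fold change was -0.33 ± 0.07 in Treatment against Model (adjusted p = 0.0319) and -0.25 ± 0.07 in Treatment against Control (adjusted p = 0.144), and 0.09 ± 0.07 in Model against Control (0.612). Neo1, its relative, had means of 105 ± 8.43, 113 ± 4.71 and 113 ± 7.34 CPM and did not pass (0.11, 0.00 and 0.11 with an SE of 0.07 each). The fall of Dcc did not pass without Model replicate 2 (adjusted p = 0.114), 3 (0.105) or 4 (0.0657), or without Treatment replicate 2 (0.0816) or 4 (0.0664). Nor did it without the 4 libraries that stood apart (-0.37 ± 0.09, 0.224) or with the neocortex score as a covariate (-0.24 ± 0.12, 0.594). In this comparison 0 of all tested genes passed without Model replicate 2, without Model replicate 3 or without the 4 libraries. With the neocortex score, which was higher in every Treatment than in every Model library, 0 genes passed as higher and 2 as lower. A lost call in these fits is not particular to Dcc. Without Model replicate 4, Treatment replicate 2 or Treatment replicate 4, by contrast, 71, 12 and 26 genes still passed as lower.

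The C1q-like proteins are relatives of the cerebellins that bind the adhesion receptor Adgrb3. C1ql3 had CPM of 87.2, 91.9, 96.9 and 98.8 in Control, 92.0, 100, 104 and 94.8 in Model, and 80.7, 73.8, 78.4 and 85.7 in Treatment. Treatment lay below the other groups without overlap. A lack of overlap in either direction was found for 9.5% (Model) and 7.24% (Control) of tested genes. The log2 fold change was -0.30 ± 0.06 in Treatment against Model (adjusted p = 0.0305), -0.23 ± 0.06 in Treatment against Control (0.126) and 0.06 ± 0.06 in Model against Control (0.698). C1ql2 was at -0.31 ± 0.13 in Treatment against Model (0.223) and C1ql1 at 0.21 ± 0.12 (0.380), and neither passed. C1ql4 had 0 counts in every Control and Model library and 0 to 4 in Treatment and was not tested. Adgrb3 had means of 101 ± 1.36, 100 ± 5.32 and 96 ± 4.98 CPM. C1ql2 and C1ql3 are also known from the mossy fibres of dentate granule cells. Of 7 dentate granule cell markers 4 (Prox1, Sema5a, Trpc6 and Calb1) fell in Treatment against Model, where 1.88% of all tested genes passed. The list median was -0.40, and the part of these cells in the fall of C1ql3 was not tested. C1ql3 did not pass without Model replicate 2 (0.115) or 3 (0.113) or without Treatment replicate 2 (0.089). Nor did it pass without the 4 libraries (-0.29 ± 0.08, 0.256) or with the neocortex score as a covariate (-0.20 ± 0.10, 0.608). As stated for Dcc, 0 of all tested genes passed without Model replicate 2, without Model replicate 3 or without the 4 libraries. With the neocortex score only 2 passed, both as lower. Without Treatment replicate 2, by contrast, 40 genes still passed as higher and 12 as lower.

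**Figure D5:**
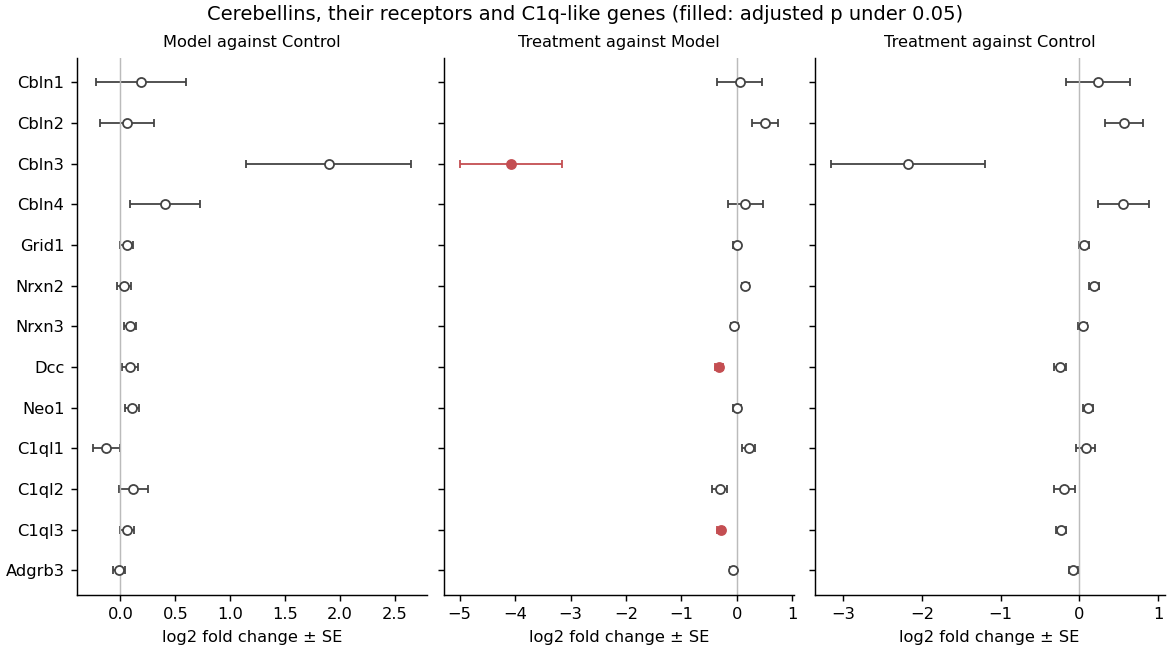
Log2 fold change ± SE from edgeR (4 libraries per group) of the 4 cerebellins, 5 receptors and 4 testable C1q-like genes in the 3 comparisons, with filled points at an adjusted p under 0.05. Cbln3, Dcc and C1ql3 are filled in Treatment against Model, at -4.07, -0.33 and -0.30, and the horizontal scales differ between panels.

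Over the 5 lists of the pathway 29 of 30 genes could be tested. In Model against Control 0 of 29 passed in edgeR and 23 were positive (median 0.08), where 0.79% of all genes passed, with 6 at an unadjusted p under 0.05 (15.6% of all genes), 1 in DESeq2 and 0 in limma-voom. In Treatment against Model 2 of 29 passed, Dcc and C1ql3, both lower (median -0.05), where 1.88% of all genes passed; 6 had an unadjusted p under 0.05 (18.5% of all genes), and DESeq2 and limma-voom called 2 each. In Treatment against Control 0 of 29 passed (median 0.05), where 0.102% of all genes did. There 10 had an unadjusted p under 0.05 (13.9% of all genes), and DESeq2 called 2 and limma-voom 0. Of all 18600 genes DESeq2 called 398 as higher and 260 as lower, 551 and 537, and 316 and 114 in the order of these comparisons. With limma-voom these counts were 43 and 45, 198 and 120, and 6 and 3. Among 12 other neurexin ligands (neuroligins, Lrrtm proteins, Clstn3, neurexophilins and Dag1) 0 passed in each comparison, with medians of 0.10, -0.02 and 0.06. The 3 regulators of neurexin splicing, Khdrbs1, Khdrbs2 and Khdrbs3, select whether the segment needed for cerebellin binding is kept. None passed; Khdrbs3 had 120 to 140 CPM in Control and 157 to 172 in Model without overlap, as for 11.4% of all tested genes (0.32 ± 0.08, adjusted p = 0.0582). Splice forms were not measured. Of the 5 intracellular partners of delta receptors 0 passed.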

How the data were processed

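The deposited file holds an estimated count and an FPKM value per gene and library, as the authors deposited them. STAR 2.7.10a, Salmon 1.10.1, Trim Galore 0.6.7, FastQC 0.12.1 and cutadapt 3.4 are named per the submitters' processing notes, as are GRCm39 and mm39; annotation, strand setting and filters are not given in the sources used here. Of the nonzero counts, 28.8% were not whole (tolerance 1e-06), so the deposited expected counts were rounded. The deposited FPKM were used for levels between genes.

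Of 78298 genes, 21883 had no symbol. filterByExpr left 18600, which were fitted in edgeR 4.0.16 (R 4.3.3) with TMM scaling and 1 quasi-likelihood model over 12 libraries; SE came from the fold change and its F statistic. Tests were adjusted over all genes of a comparison. Log2 CPM used a prior count of 2. Depth (17083260 to 27479083 counts per library) and the spread between libraries (biological coefficient of variation 10.7%) limit the precision. In data simulated for Model against Control (18600 genes), changes of 0.4, 0.8 and 1.5 log2 units were called for 31.3%, 65.7% and 80.3% of changed genes. Of 18400 unchanged genes 0.0326% were called. The changed genes were drawn at random with their own spread, and the run was set to stop if too few changes of 1.5 were called. These rates were not measured for the cerebellins, whose log2 fold changes had SEs of 0.24 (Cbln2) to 0.98 (Cbln3).

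Named genes are the 4 members, the receptor and C1q-like genes (some genes that the rule selects are not reported here), pathway genes that passed, and per member the 5 genes of highest r among 13708 genes with a symbol that is no clone name and a mean of at least 1 CPM; marker lists are given by score and count. Names outside this rule (cerebellar, neocortical and dentate markers, Khdrbs3) were chosen after their values were seen. The members, lists and tests were chosen with earlier results of these data known. Other tools were limma 3.58.1, DESeq2 1.42.0, data.table (version 1.17.8), Python 3.11.15, Biopython 1.88 and matplotlib 3.10.9. Libraries of a group differed beyond sampling noise, so none was a duplicate. Same-numbered libraries showed little common deviation, so replicate numbers were not used as pairs, which does not exclude pairing. Alternatives were RLE scaling, DESeq2, limma-voom, no filter, at least 1 CPM in 8 libraries, only the 8 libraries compared, a replicate block, leaving out libraries, marker scores as covariates, and limma on log2(FPKM + 0.1) and log2(FPKM + 1) for genes at 0.5 FPKM or more in 4 libraries.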

Additional observations from a re-analysis of the deposited data

Results flagged for a closer look

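A library far from the other 3 of its group (by Dixon's test) was found in 8 of 72 groups of values (11.1%), and chance gives about 1 in 20. The 72 include C1ql4 in Control and in Model, which had 0 counts throughout and could not be flagged. Some flagged values come from the same library, so they are not independent of each other. Cbln2 had 14.6 CPM in Model replicate 2, with the next Model library at 8.24, and the same library stood apart in the thalamus score (0.468) and the medial habenula score (1.71) of Model. In Control replicate 2, Neo1 was at 118 CPM (next 102) and Adgrb3 at 99.4 CPM (next 102). The medial habenula score was 1.1 in Control replicate 1, the thalamus score was 0.392 in Treatment replicate 2, and the neocortex score was -0.348 in Model replicate 3. No other pattern of the cerebellins met these rules.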

How the results depend on the processing

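The fall of Cbln3 from Model to Treatment kept its direction in all 25 alternatives that gave a value (-7.34 to -0.72) and passed in 11. It passed with RLE scaling, DESeq2, no filter, the thalamus or neocortex score as a covariate, the replicate block, and without Model replicate 4 or any Control library. Every Treatment library had a neocortex score above every Model library, so that fit could hardly separate the group from the score. With no filter SEs were far smaller (for Cbln3 in Model against Control 0.19, against 0.75 in the main fit), so a pass there is not comparable. It did not pass in limma-voom (-3.05, adjusted p = 0.257), in only the 8 libraries compared (0.05), as FPKM (0.149 and 0.204), or without Treatment replicates 2 and 3 (0.16), whose library names in the labels carry the numbers 1631 and 1636 while the other 10 lie between 1868 and 1898. With at least 1 CPM in 8 libraries it was not tested.

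Cerebellin genes passing in Treatment against Model were 0 in limma-voom, with at least 1 CPM in 8 libraries, in only the 8 libraries compared, with Treatment replicates 2 and 3 or the 4 libraries that stand apart left out, and as FPKM with either pseudocount, and 2 with no filter; leaving out 1 library gave 0 to 1. With the cerebellum score the 1 gene passing was Cbln1. With no filter 2 passed in Model against Control and 3 in Treatment against Control. Pathway genes passing in Model against Control were 1 in DESeq2, at 1 CPM in 8 libraries, in only the 8 libraries compared, with the replicate block and without Treatment replicates 2 and 3, 4 with no filter, and 0 to 1 without single libraries. In Treatment against Model they were 0 in only the 8 libraries compared, without Treatment replicates 2 and 3, without the 4 libraries, as FPKM (either pseudocount) and with the neocortex score, 3 with no filter, and 0 to 2 without single libraries. In Treatment against Control they were 2 in DESeq2 and 5 with no filter.

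These differences turned sign; 0 of them had passed. Cbln1 in Model against Control was -0.01 in limma-voom, -0.33 to 0.50 without single libraries (-0.33 without Model replicate 1, -0.04 without Control replicate 3), -0.37 without the 4 libraries and -0.71 with the cerebellum score. Cbln1 in Treatment against Model was -0.26 without Model replicate 3, -0.03 without Model replicate 4, -0.11 without Treatment replicate 2, -0.09 without Treatment replicates 2 and 3, -0.04 with the thalamus score (up to 0.57 without Model replicate 1) and -1.41 with the neocortex score, which gave -1.01 in Treatment against Control. Cbln2 in Model against Control was -0.01 and -0.09 without Control replicates 3 and 4, -0.19 without Model replicate 2, 0.33 at most without 1 library (Control replicate 1), -0.03 and -0.02 as FPKM and -0.07 with the cerebellum score. Cbln2 in Treatment against Model was -0.21 with the neocortex score. Cbln3 and Cbln4 in Model against Control were -0.04 and -0.09 with the cerebellum score. Cbln4 in Treatment against Model was -0.09 without Model replicate 3, -0.07 without Treatment replicate 4, 0.34 at most without 1 library (Model replicate 1) and -0.75 with the neocortex score, which gave -0.24 in Treatment against Control. The cause was not tested.

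Of all genes, 147 passed in Model against Control, 658 in DESeq2, 88 in limma-voom, 783 with no filter, 452 in only the 8 libraries compared, 284 without Treatment replicates 2 and 3, 1 without the 4 libraries, 5 and 5 as FPKM, 10, 84 and 240 with the thalamus, neocortex and cerebellum scores, and 8 to 273 without single libraries. In Treatment against Model 350 passed, 1088 in DESeq2, 1090 with no filter, 137 in only the 8 libraries compared, 132 without Treatment replicates 2 and 3, 0 without the 4 libraries, 114 and 111 as FPKM, 2 and 533 with the neocortex and cerebellum scores, and 0 to 459 without single libraries (0 without Model replicate 2 or 3). In Treatment against Control 19 passed, 12 with RLE scaling, 430 in DESeq2, 9 in limma-voom, 748 with no filter, 2 in only the 8 libraries compared, 130 without Treatment replicates 2 and 3, 0 without the 4 libraries, 9 as FPKM with a pseudocount of 1, 3, 0 and 32 with the thalamus, neocortex and cerebellum scores, and 0 to 73 without single libraries.

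Same-numbered libraries of different groups had correlations of -0.04 to 0.11 (others -0.14 to 0.15), and 4 of 12 had their best partner under their own number. These values did not show pairing and cannot exclude it, so the numbers were not used as pairs. With the replicate block 228, 431 and 118 genes passed in the 3 comparisons, against 147, 350 and 19 in the main fit. Cbln3 was then at -3.51 ± 0.49 in Treatment against Model (adjusted p = 0.00474).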
